A study of Mus musculus with 16 samples.

Results

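The effect of an Ant1 transgene on muscle gene expression was described in female mice. The 8 libraries taken are those of 4 females of genotype ANT1(Tg)/+, called Tg 1 to Tg 4 here, and of 4 wild-type females, WT 1 to WT 4, out of 16 libraries in all; the other 8 come from males and enter only the comparison of the sexes. Every mouse was of strain C57BL/6 and 6 months old, ate regular chow freely and was kept at ambient temperature, and each library holds RNA from the quadriceps, the large muscle of the front of the thigh. Controls were matched for age and were littermates where the authors could arrange it, but no label ties a Tg mouse to a WT littermate. Neither the promoter that drives the transgene nor the number of founder lines is given in the sources used here. The title of the study concerns the adaptation of cytosolic protein balance to mitochondrial stress and the loss of muscle.

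Ant1, now Slc25a4, encodes the main adenine nucleotide carrier of striated muscle, a protein that moves ADP into and ATP out of the mitochondrial matrix. Like other carriers it is made in the cytosol and must be imported into the inner membrane. Stress on mitochondria in muscle is known to reach the nucleus through the integrated stress response: kinases phosphorylate the initiation factor eIF2, general translation slows, and the transcription factor ATF4 is made and switches on genes for amino acid supply, tRNA charging and secreted hormones such as Fgf21 and Gdf15.

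The values are estimated counts for 19108 gene symbols. Totals per library ran from 17435895 to 30680324 counts, and 13143 genes had enough counts to be tested. A level below is given as CPM, the count scaled to the usual common total after library sizes were adjusted by TMM factors of 0.905 to 1.13. All 8 libraries carried the transcripts of fast muscle: the 16 fast fibre genes summed to 182900 to 301400 CPM, and Myh4, a fast myosin, made up 5.87 to 9.998% of each total. Xist stood at 172 to 265 CPM and no Y-linked count was found. No label names separate cages, days or batches, so p-values measure the spread between these mice, with whatever technical spread they share.

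Before the genotype effect, the libraries were compared for RNA of fat and of slow fibres, because 4 of them stood apart. White adipocyte markers (9 genes such as Adipoq, Fabp4 and Cfd) summed to 2825, 3584, 721.9 and 312 CPM in WT 1 to WT 4 and to 488, 425, 360 and 1523 CPM in Tg 1 to Tg 4. Brown adipocyte markers (5 genes, led by the uncoupling protein gene Ucp1) summed to 225, 236, 1.27 and 1.08 CPM in WT and to 1.27, 1.80, 3.16 and 361 CPM in Tg. Brown fat RNA was thus present in WT 1, WT 2 and Tg 4, and near 0 in the other 5, where Ucp1 itself stood between 0 and 0.0527 CPM. The 13 slow fibre genes, among them the slow myosin Myh7, summed to 95.1, 209, 78.3 and 72.4 CPM in WT and to 137, 1321, 271 and 270 CPM in Tg, so Tg 2 was far above all others and Tg 1 lay below WT 2. In bulk RNA, fewer cells of a type and less RNA per cell cannot be told apart.

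**Figure D1:**
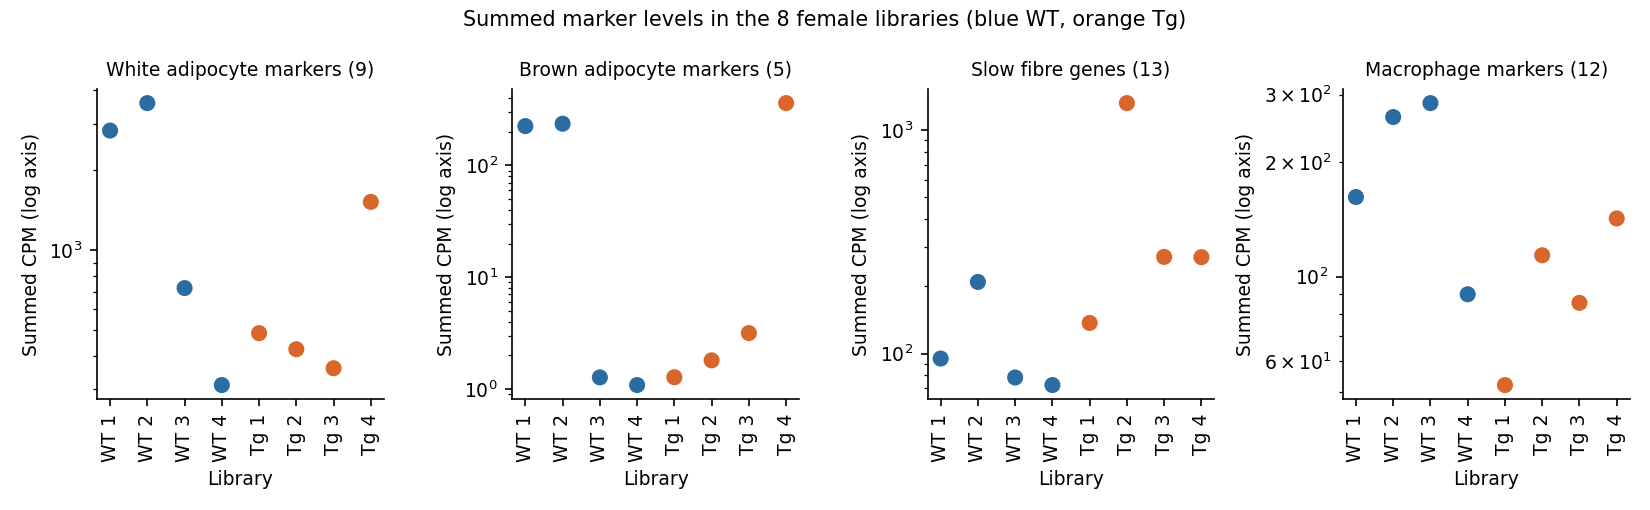
Summed CPM of marker genes (vertical axes, log scale) in each of the 8 female libraries (horizontal axis; blue WT, orange Tg). Brown adipocyte markers reached 225 to 361 CPM in WT 1, WT 2 and Tg 4 only, the slow fibre sum was highest in Tg 2 at 1321 CPM, and the macrophage sum was 89.9 to 285 CPM in WT and 52 to 142 CPM in Tg.

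For each library a score was taken as the mean over the markers of log2(CPM + 0.5), centred on 0. The adipocyte score was 0.53 ± 1.77 in WT and -0.53 ± 0.96 in Tg (SD, n = 4 each), with 15.5% of its variance lying between the genotypes. The slow fibre score was -1.16 ± 1.02 in WT and 1.16 ± 1.30 in Tg (SD, n = 4 each), with 56.8% of its variance between the genotypes. As a covariate, the slow fibre score inflates the variance of the genotype effect 2.31-fold, against 1.18-fold for the adipocyte score. In fits that held genotype and 1 score, 884 genes (6.73% of those tested) followed the adipocyte score by edgeR's quasi-likelihood test, 783 upward and 101 downward. The slow fibre score called 3 genes (0.0228%), Myh7, Tnni1 and Tnnt1, which are themselves markers in the score. The number for fat was 334 without WT 2, 440 without Tg 4 and 1600 without WT 3, and the number for slow fibres was 5 without WT 3 and 21 without Tg 2.

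Slc25a4 itself was measured first. The gene lies on chromosome 8 from 46206797 to 46211284 on the minus strand (ENSMUSG00000031633.4, build mm10). Its level was 3038, 2857, 2759 and 3645 CPM in WT 1 to WT 4 and 10930, 10990, 9720 and 8430 CPM in Tg 1 to Tg 4. Every Tg library was far above every WT library, and the groups did not come near each other. The means were 3075 ± 397 and 10020 ± 1209 CPM (SD, n = 4 each), a 3.23-fold increase (log2 fold change 1.69, SE 0.14, adjusted p = 7.92e-05). With both scores as covariates the log2 fold change was 1.51 and the gene was still called. Transgene and endogenous transcripts are summed in these counts. The sister gene Slc25a5 stood at 44.7 ± 19.6 CPM in WT and 42.2 ± 12.7 CPM in Tg (log2 fold change -0.10, adjusted p = 0.88), and it followed the adipocyte score (adjusted p = 0.00174). Of 14 genes that start within 500 kb of Slc25a4, 10 were tested and 0 were called; the smallest adjusted p among them was that of Primpol (0.0899), which encodes a primase and polymerase.

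Across all genes, 1404 of 13143 (10.7%) were called by edgeR at an adjusted p under 0.05 (Benjamini-Hochberg), with 858 (6.53%) higher and 546 (4.15%) lower in Tg. At least 2-fold changes numbered 230 upward (1.75%) and 171 downward (1.3%), and the median log2 fold change of all tested genes was -0.01. The 4 Tg libraries all exceeded the 4 WT libraries for 1613 genes (12.3%) and all fell below them for 843 (6.41%). Counts of called genes in every list below stand against the 6.53% called higher and 4.15% called lower.

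**Figure D2:**
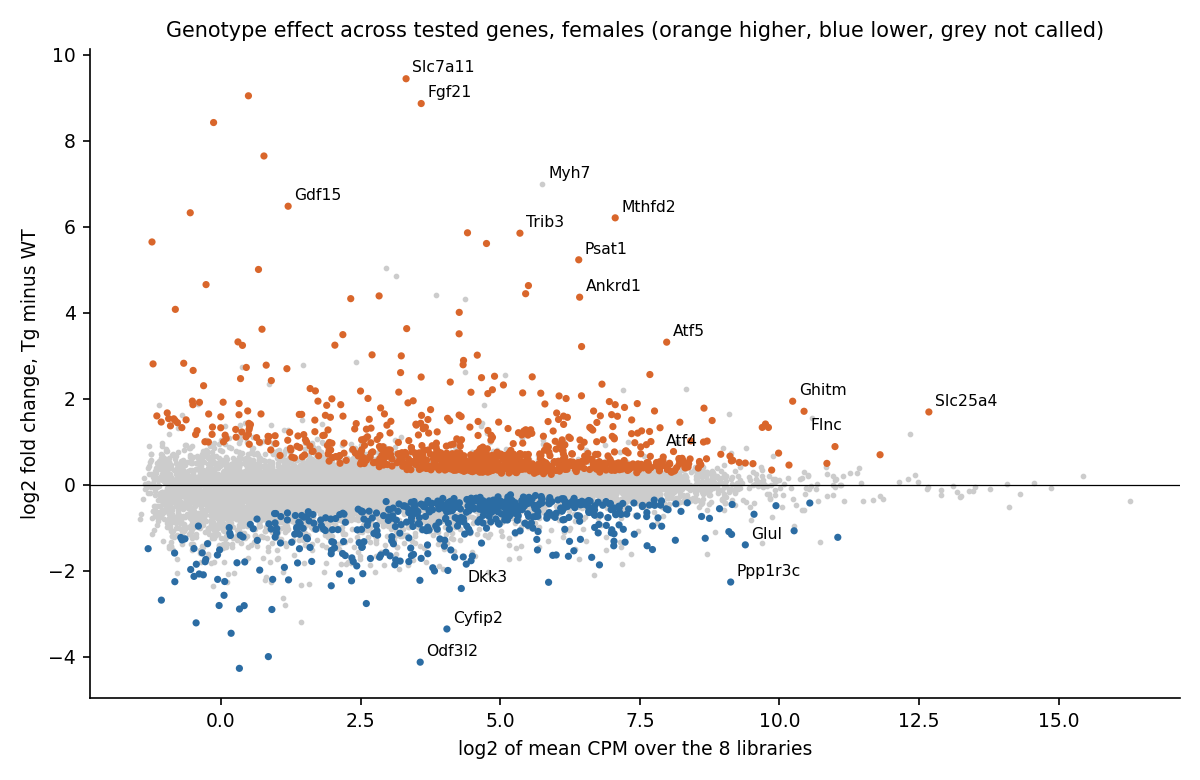
Log2 fold change of Tg over WT (vertical axis) against the log2 of the mean CPM over the 8 libraries (horizontal axis) for the 13143 tested genes, orange where called higher, blue where called lower and grey where not called. Called increases reached further from 0 than called decreases, and Myh7, with a large value that was not called, stands grey among them.

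The number of calls depended on single libraries. Without WT 1 it fell to 418 higher and 307 lower genes. It was 695 without Tg 1, 645 without Tg 2, 678 without Tg 3 and 2186 without WT 4. With the adipocyte score as a covariate 1804 genes were called, of which 1270 were also called without it, and without WT 1, WT 2 and Tg 4, the libraries with brown fat RNA, 866 were called (6.59%), 659 of them shared, with 434 (3.3%) higher and 432 (3.29%) lower. With the slow fibre score 219 genes were called, 177 higher and 42 lower, 212 of them shared with the comparison without it. None of the 1404 called genes changed sign in any of these settings. A set of 167 genes, 141 higher and 26 lower, was called in the comparison itself and under all 5 settings that take fat or slow fibre RNA into account. These settings are each score as a covariate, both scores, the omission of WT 1, WT 2 and Tg 4, and the omission of Tg 2.

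**Figure D3:**
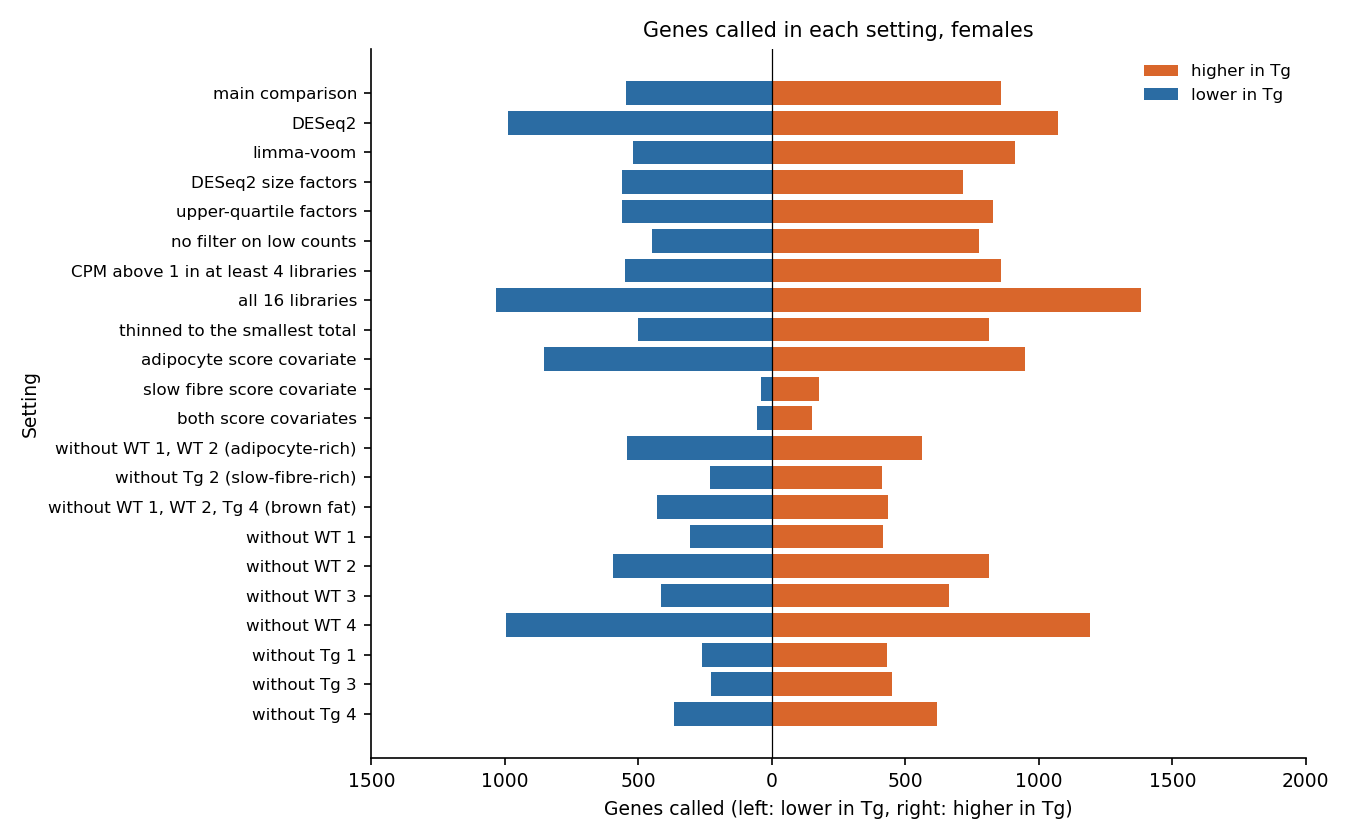
Genes called higher (orange, to the right) and lower (blue, to the left) in Tg females under each setting (rows); bar length is the number of genes, from 0. The main comparison holds 858 higher and 546 lower genes, and the slow fibre score as a covariate leaves 177 and 42.

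Regulators of the integrated stress response rose in 11 of 20 cases. Against this, 6.53% of all genes were called higher. None of the 20 was called lower by edgeR, with a median log2 fold change of 1.12 against -0.01 for all genes. Atf4, the transcription factor at the centre of the response, stood at 137, 122, 132 and 137 CPM in WT and at 353, 333, 334 and 313 CPM in Tg (log2 fold change 1.32, SE 0.08, adjusted p = 9.90e-06). The 4 values of each genotype lay close together and the groups were well apart. Atf5, a related factor known from the mitochondrial unfolded protein response, was at 49.6, 60.7, 31.6 and 40.8 CPM in WT and at 505, 448, 456 and 430 CPM in Tg, a rise of 3.31 on the log2 scale (SE 0.19, adjusted p = 9.72e-06). Trib3, a pseudokinase that restrains ATF4, was at 1.29, 2.64, 0.95 and 0.59 CPM in WT and at 97.1, 87.0, 76.4 and 60.9 CPM in Tg (log2 fold change 5.85, SE 0.38, adjusted p = 5.32e-05). Sesn2, which restrains mTORC1, rose from 3.05 ± 0.85 to 35.4 ± 5.75 CPM (SD, n = 4 each), and Cebpg, a dimer partner of ATF4, from 54.6 ± 4.06 to 167 ± 25.7 CPM. Ddit3, which encodes CHOP, rose by 2.79 on the log2 scale, Nupr1 by 2.49 and the translation inhibitor gene Eif4ebp1 by 2.00. The 4 genes of the eIF2 kinases in the list (Eif2ak1 to Eif2ak4) were not called, with log2 fold changes between -0.48 and -0.03. Of the 11, 10 were called without the brown-fat-bearing libraries and 8 with the slow fibre score.

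ATF4 is known to act with C/EBP partners on a composite element, searched here as the letters TGATGNAA on both strands of the 300 bases from 250 before to 50 after each annotated start (RefSeq, GRCm38.p6). Of the 230 genes called higher by at least 2-fold, 186 had a promoter in that table (80.9%), and 25 of these (13.4%) held the letters in at least 1 promoter. The same letters were in 1219 of all 27025 genes with a promoter (4.51%). They were in 286 of 10429 tested genes with a promoter (2.74%) and in 11 of 495 genes called higher by less than 2-fold (2.22%). For these last 2 sets only 79.4% and 78.8% of genes had a promoter, under the 80% set as a minimum, so a comparison with them is void. Of the 15 largest increases named by rule, 12 had a promoter and 4 of them held the letters (33.3%). No test was made, and a match of letters is not a measured binding site. Promoters of 5 genes that rose and hold the letters within 150 bases before the start are shown because they span transport, secretion, asparagine synthesis, gluconeogenic enzyme and tRNA charging; the matched letters are in capitals, on whichever strand they lie, and each run ends at the base before the start. They lie at chr3:50443614-50443763 (minus strand), chr7:45615491-45615640 (minus), chr6:7693210-7693359 (minus), chr14:55540116-55540265 (plus) and chr6:55037851-55038000 (plus), in the order printed.
Slc7a11: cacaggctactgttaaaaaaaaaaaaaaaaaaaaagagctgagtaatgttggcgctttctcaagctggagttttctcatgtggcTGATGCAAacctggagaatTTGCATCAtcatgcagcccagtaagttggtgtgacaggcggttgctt
Fgf21: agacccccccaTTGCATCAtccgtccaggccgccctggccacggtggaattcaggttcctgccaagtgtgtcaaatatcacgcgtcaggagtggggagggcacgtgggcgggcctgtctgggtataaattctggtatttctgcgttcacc
Asns: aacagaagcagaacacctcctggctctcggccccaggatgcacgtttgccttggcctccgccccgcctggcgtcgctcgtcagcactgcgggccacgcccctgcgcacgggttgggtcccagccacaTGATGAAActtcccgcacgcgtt
Pck2: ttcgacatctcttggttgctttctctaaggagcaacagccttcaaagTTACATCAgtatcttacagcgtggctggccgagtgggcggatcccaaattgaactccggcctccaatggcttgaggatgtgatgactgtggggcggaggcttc
Gars: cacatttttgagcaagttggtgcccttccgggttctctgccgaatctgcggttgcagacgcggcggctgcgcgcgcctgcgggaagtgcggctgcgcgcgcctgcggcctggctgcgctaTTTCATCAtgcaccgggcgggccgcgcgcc

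Slc7a11 holds the letters at 2 places, beginning 66 and 47 bases before the start on opposite strands. Each of the other 4 holds them at 1 place, beginning 139 bases before the start in Fgf21, 23 in Asns, 103 in Pck2 and 30 in Gars.

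Of 20 enzymes that make serine, one-carbon units, proline and asparagine, 14 were called higher and 0 lower (median log2 fold change 1.02). Among all genes 6.53% were called higher. With the slow fibre score 8 of the 20 were called higher. The lowest value was that of Aldh1l1, a cytosolic folate enzyme (log2 fold change -1.27, adjusted p = 0.133), which was called lower with the adipocyte score (adjusted p = 0.0462) and without the brown-fat-bearing libraries (0.0317). Mthfd2, a mitochondrial enzyme of the folate cycle, was at 3.30, 3.25, 4.11 and 3.46 CPM in WT and at 301, 246, 267 and 239 CPM in Tg. The rise was 73.9-fold (log2 fold change 6.21, SE 0.13, adjusted p = 7.96e-09), and the WT libraries with fat RNA stood no higher than the others. Aldh18a1, which starts proline synthesis, was at 3.70, 4.53, 2.85 and 2.81 CPM in WT and at 98.7, 91.3, 79.8 and 79.6 CPM in Tg (log2 fold change 4.63, SE 0.17, adjusted p = 7.04e-07). Pycr1, which ends it, rose from 4.79 ± 1.37 to 35.8 ± 3.62 CPM and Pck2, the mitochondrial phosphoenolpyruvate carboxykinase, from 5.48 ± 0.77 to 28.9 ± 1.74 CPM (SD, n = 4 each). Psat1 of serine synthesis was at 6.30, 6.71, 3.06 and 1.03 CPM in WT and at 191, 166, 161 and 143 CPM in Tg (log2 fold change 5.23, SE 0.50, adjusted p = 0.000659). Asns, asparagine synthetase, was at 5.41, 7.07, 1.85 and 0.65 CPM in WT and at 93.2, 75.0, 86.7 and 81.0 CPM in Tg (log2 fold change 4.44, SE 0.60, adjusted p = 0.00455). For both genes the WT libraries rich in adipocyte markers, WT 1 and WT 2, were the highest of the 4 WT libraries. Without WT 1, WT 2 and Tg 4 the log2 fold change was 6.36 for Psat1 and 6.05 for Asns, and with the slow fibre score Asns was not called (adjusted p = 0.0756). Phgdh, the first enzyme of serine synthesis, was at 5.63 ± 4.03 CPM in WT and 11.7 ± 1.24 CPM in Tg (SD, n = 4 each), with log2 fold change 1.03 and adjusted p = 0.227, also with WT 1 and WT 2 the highest of WT.

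Carriers of amino acids across the plasma membrane changed in both directions. Of 16 tested, 7 were called higher and 2 lower (median log2 fold change 0.41), against 6.53% and 4.15% of all genes. Slc7a11, the cystine and glutamate exchanger, had 2 counts in WT 3 and 0 in the other WT libraries, against 28.2, 17.4, 17 and 16.8 CPM in Tg. The ratio was 879 (95% counting interval 243 to 7266; adjusted p = 6.60e-06), and without WT 3 it was at least 459-fold higher, taking 3 counts over the group as the limit of 0. Without the brown-fat-bearing libraries the ratio was 397 (110 to 3277). Slc7a5, which exchanges large neutral amino acids, was at 0.82, 1.73, 0.79 and 0.97 CPM in WT and at 59.2, 48.1, 53.6 and 50.7 CPM in Tg (log2 fold change 5.61, SE 0.22, adjusted p = 1.46e-06). Slc7a1, which takes up arginine and lysine, rose from 2.22 ± 0.59 to 36.3 ± 5.80 CPM (SD, n = 4 each), and Slc1a4, a carrier of alanine, serine and cysteine, from 0.73 ± 0.20 to 8.35 ± 1.41 CPM. The 2 that fell were Slc7a8, a second carrier of neutral amino acids, from 21.3 ± 5.01 to 8.97 ± 1.55 CPM, and Slc38a4, from 148 ± 39.3 to 68.3 ± 16.0 CPM. All 7 increases were called under each of the 5 settings for fat and slow fibre RNA; without Tg 3, 1 of the 2 decreases was called. Slc38a4 was not called with the slow fibre score (log2 fold change -0.77 there, adjusted p = 0.309).

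Cytosolic aminoacyl-tRNA synthetases, which load amino acids onto tRNAs, rose by smaller factors but in most members. Of 20 tested, 15 were called higher and 0 lower (median log2 fold change 0.86), against 6.53% of all genes called higher. Gars, for glycine, was at 65.4, 60.3, 69.8 and 70.3 CPM in WT and at 247, 234, 227 and 223 CPM in Tg (log2 fold change 1.80, SE 0.08, adjusted p = 2.35e-06). Sars, for serine, was at 84.8, 83.4, 82.2 and 88.0 CPM in WT and at 255, 244, 236 and 234 CPM in Tg (log2 fold change 1.51, SE 0.07, adjusted p = 2.43e-06). In both, the spread within a genotype was small against the gap between genotypes. Lars rose by 1.33 and Mars by 1.12 on the log2 scale; exons of Mars overlap Ddit3 on the opposite strand. The 5 that were not called, Kars, Farsa, Dars, Rars and Qars, had log2 fold changes of 0.04 to 0.27. With single libraries left out 12 to 15 members were called higher, and with the slow fibre score 12.

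Secreted factors of muscle did not move as a list, but 2 stress hormones went from near 0 to clear levels. Fgf21, which acts on liver and fat in fasting, had 4 counts over WT 1 and WT 2 and 0 in WT 3 and WT 4, and was at 30.9, 16.4, 31.7 and 16.8 CPM in Tg. The ratio was 542 (95% counting interval 212 to 1992; adjusted p = 1.54e-05). Gdf15, which lowers food intake through a brainstem receptor, had 4 counts in the same 2 WT libraries and was at 4.14, 5.39, 3.72 and 4.98 CPM in Tg, a ratio of 97.8 (37.9 to 361; adjusted p = 3.01e-05). The WT counts of both genes lay in the 2 libraries rich in adipocyte RNA. There each gene stayed below 3 counts per library, a level not told from 0. A link to fat RNA was not tested. Without the 3 brown-fat-bearing libraries the increases were at least 342-fold for Fgf21 and at least 53.8-fold for Gdf15. The ratio was 709 without WT 1 and 841 without WT 2 for Fgf21, and 128 and 152 for Gdf15. Igf2, a growth factor, rose from 16.6 ± 3.28 to 46.2 ± 10.4 CPM (SD, n = 4 each; log2 fold change 1.46, adjusted p = 0.00134). Of 16 genes in the list, 5 were called higher and 0 lower, and the median log2 fold change was -0.11. The number was 3 without WT 1, without WT 3 or without any 1 of the Tg libraries, and 4 were called lower without WT 4. Mstn, which limits muscle mass, was not called (log2 fold change -0.15).

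**Figure D4:**
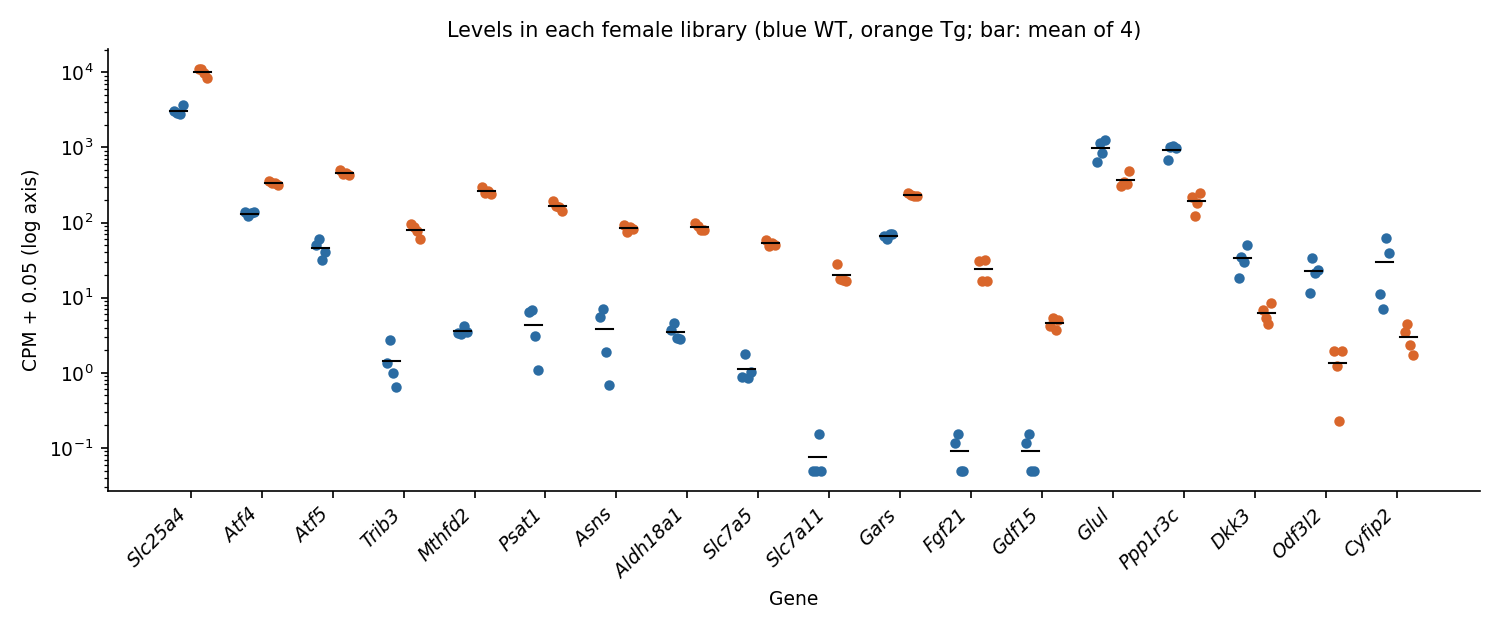
CPM plus 0.05 (vertical axis, log scale) of 18 genes (horizontal axis) in each female library, blue WT and orange Tg, with a bar at the mean of 4 libraries. In all 18 genes the 4 Tg points lie wholly above or wholly below the 4 WT points; in Psat1, Asns and Trib3 the WT points spread more widely than the Tg points.

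Other genes with the largest rises belong to none of these lists. Arhgap33 was at 0.86, 0.92, 0.47 and 0.54 CPM in WT and at 34.7, 38.3, 39.5 and 55.2 CPM in Tg (log2 fold change 5.86, SE 0.24, adjusted p = 1.81e-06). Ankrd1, a stretch-responsive protein of the sarcomere, was at 4.79, 8.59, 6.43 and 12 CPM in WT and at 144, 136, 163 and 211 CPM in Tg (log2 fold change 4.36, SE 0.30, adjusted p = 5.32e-05). Trim66 rose from 0.64 ± 0.17 to 13.6 ± 2.35 CPM, Soat2, which esterifies cholesterol, from 0.48 ± 0.11 to 9.53 ± 1.07 CPM, and the potassium channel gene Kcnk5 from 1.48 ± 0.62 to 18.6 ± 3.93 CPM (SD, n = 4 each). These 5 genes were called in all 22 distinct alternatives. A few genes had at most 3 counts over all WT libraries and at least 10 in each Tg library. Adm2, a peptide hormone of the adrenomedullin family, had 0 counts in WT and 1.55 to 2.11 CPM in Tg, at least 53.9-fold higher. Vmn2r3, a vomeronasal receptor gene, had 0 counts in WT and 2.00 to 4.00 CPM in Tg, at least 83.2-fold higher. Fut1, a fucosyltransferase gene, had 1 count, in WT 4, and 2.94 to 3.74 CPM in Tg, a ratio of 296 (95% counting interval 52.7 to 11710), or at least 77.7-fold without WT 4.

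Among called genes, those with the largest rises in mean CPM encode structural and mitochondrial proteins. Larger differences in mean CPM than in most of them were seen in 2 genes that were not called: the calcium pump gene Atp2a1, at 41000 ± 6740 CPM in WT and 47440 ± 7195 CPM in Tg (SD, n = 4 each; adjusted p = 0.471), and the fast myosin gene Myh1, at 3152 ± 1837 and 7217 ± 801 CPM (adjusted p = 0.0818). Of the 6 called genes with the largest rise, Flnc, the muscle filamin that links actin at the Z-disc, was at 578, 734.5, 493 and 784 CPM in WT and at 2213, 2405, 1702 and 2209 CPM in Tg (log2 fold change 1.71, SE 0.18, adjusted p = 0.000326). Ghitm, an inner mitochondrial membrane protein, was at 493, 490, 512 and 486 CPM in WT and at 1955, 1782, 2127 and 1812 CPM in Tg (log2 fold change 1.94, SE 0.10, adjusted p = 2.80e-06). The WT values of Ghitm were almost level across libraries with and without fat RNA. Nrap, an actin-anchoring protein, rose from 1425 ± 74.8 to 2656 ± 231 CPM, and Cox6a2, the muscle form of a cytochrome oxidase subunit, from 468 ± 142 to 1254 ± 86.6 CPM (SD, n = 4 each). Both kept their direction but not their call with the slow fibre score (adjusted p = 0.0653 and 0.073). Ankrd23, a relative of Ankrd1, rose from 2711 ± 386 to 4430 ± 505 CPM and was not called without WT 1 (adjusted p = 0.0599), without Tg 2 (0.0603) or without the brown-fat-bearing libraries (0.0643). Ankrd23 was also not called with the slow fibre score (adjusted p = 0.234) or with both scores (0.4).

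Most genes of the cytosolic ribosome rose by small amounts, and most translation factors were not called. Of 78 cytosolic ribosomal protein genes, 60 were called higher and 0 lower, with a median log2 fold change of 0.41, values from -0.22 to 0.77 and 67 genes whose 4 Tg libraries all exceeded the WT libraries, against 12.3% of all tested genes. Rpl12 was at 209, 168, 206 and 226 CPM in WT and at 389, 352, 341 and 309 CPM in Tg (log2 fold change 0.77, SE 0.11, adjusted p = 0.00224). The number called was 16 without WT 1, 14 without Tg 1, 13 without Tg 2, 22 without Tg 3, 11 without the brown-fat-bearing libraries and 3 with the slow fibre score, while the median was 0.40 without the brown-fat-bearing libraries and 0.41 without Tg 2. Processed copies of these genes in the genome can share reads, which makes single members uncertain. Of 43 translation factors 8 were higher and 0 lower (median 0.14), a number that ran from 2 without Tg 1 to 14 without WT 4 and was 3 without WT 1, 3 without Tg 2 and 4 without Tg 3. It was 1 with the slow fibre score, 1 with both scores and 1 without the brown-fat-bearing libraries. Eif3c, a subunit of eIF3, stood apart at 177, 163, 187 and 193 CPM in WT and 638, 608, 640 and 605 CPM in Tg (log2 fold change 1.78, SE 0.09, adjusted p = 2.43e-06). The next largest called value in that list was 0.52, of Eif5.

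Genes of mitochondrial protein handling rose in part, where 6.53% of all genes were called higher. Of 21 mitochondrial chaperones and proteases, 8 were called higher and 0 lower (median log2 fold change 0.22). Hspa9, the mitochondrial Hsp70 that pulls precursors into the matrix, was at 469, 489, 466 and 445 CPM in WT and at 1268, 1189, 1117 and 1174 CPM in Tg (log2 fold change 1.33, SE 0.09, adjusted p = 2.24e-05). Its partner Dnaja3 rose from 111 ± 8.03 to 194 ± 7.92 CPM and Chchd10 of the intermembrane space from 232 ± 65.9 to 657 ± 47.0 CPM (SD, n = 4 each); exons of Dnaja3 overlap Vasn on the same strand, and Chchd10 was not called with the slow fibre score (adjusted p = 0.0688). Hspd1, the mitochondrial Hsp60, had a log2 fold change of 0.15 and was not called. Of 28 import genes, 5 were higher and 0 lower (median 0.20), led by the small carrier chaperones Timm8a1 (0.81, adjusted p = 0.00233) and Timm10 (0.75, adjusted p = 0.00437). Among the 78 proteins of the mitochondrial ribosome, 17 were higher and 0 were lower (median 0.21). The 3 numbers were 5, 2 and 6 without WT 1, 5, 2 and 6 without Tg 1, 5, 2 and 7 without Tg 2 and 5, 2 and 8 without Tg 3, in the order given. Without Tg 4 the first 2 were 5 and 2, and the third was 9 without WT 3 and 28 without WT 4. With the slow fibre score the 3 numbers were 2, 0 and 0, with Timm8a1 at an adjusted p of 0.0919 and Timm10 at 0.138, and without the brown-fat-bearing libraries they were 3, 2 and 2.

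**Figure D5:**
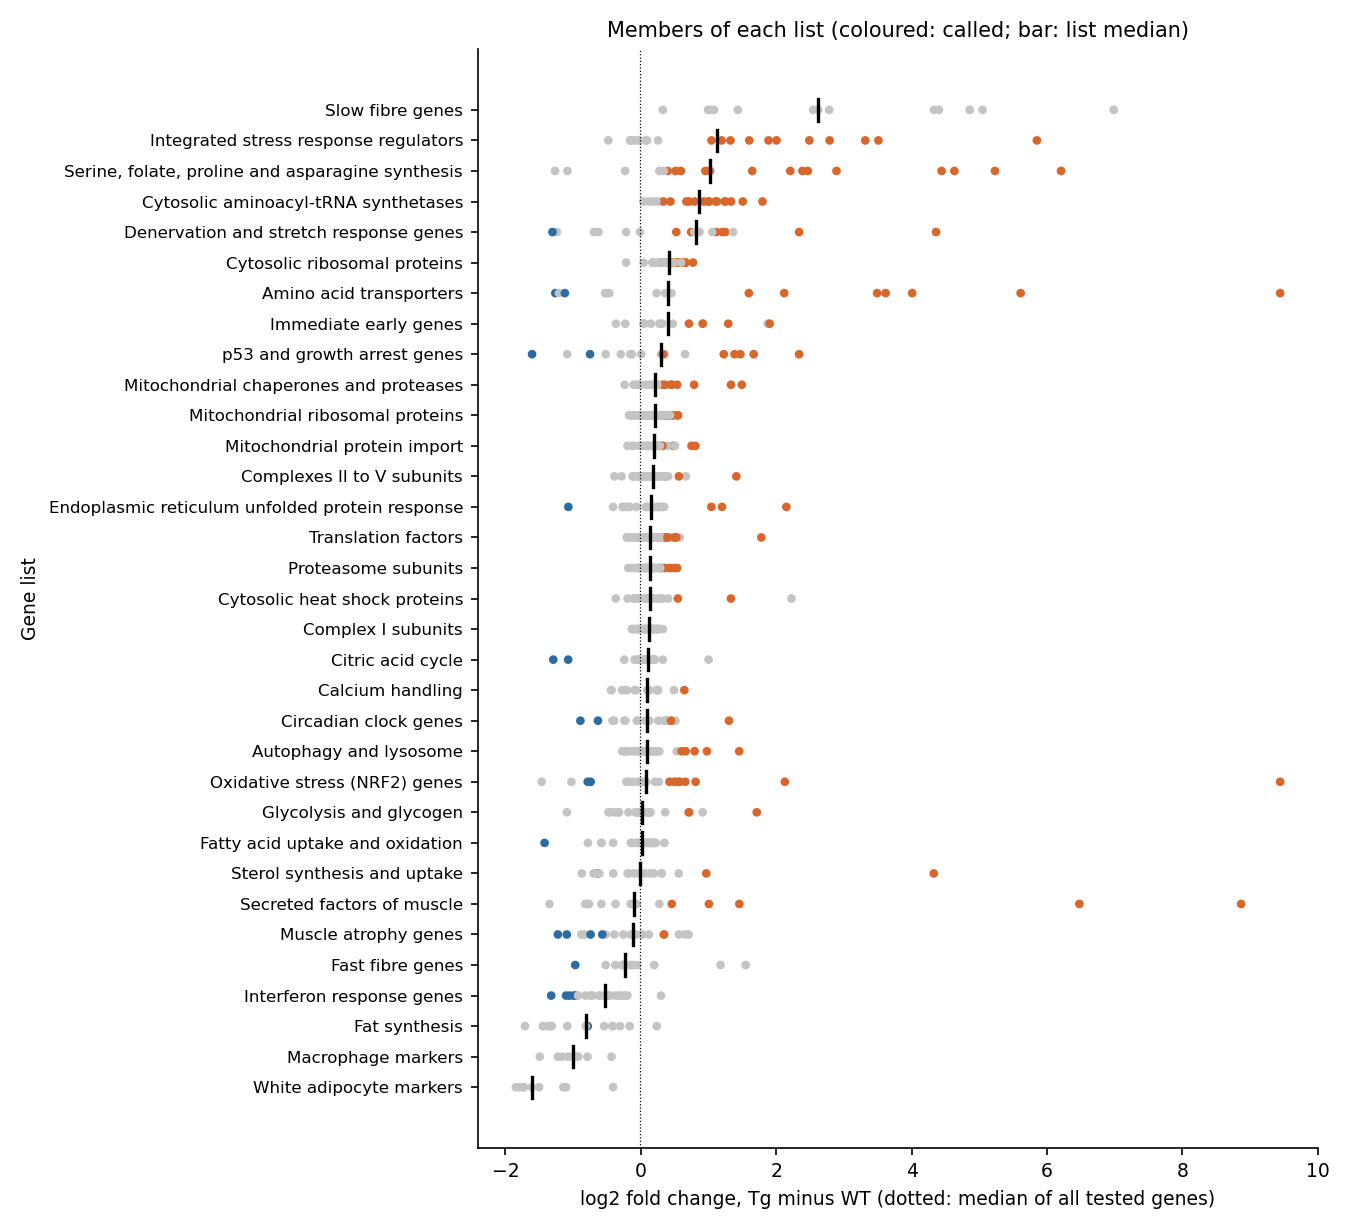
Log2 fold change of Tg over WT (horizontal axis) for each tested gene of 33 lists (rows), orange where called higher, blue where called lower, grey where not called, with a black bar at the list's median and a dotted line at the median of all tested genes. The slow fibre genes have the largest median, 2.62, with no gene called, followed by the stress response regulators at 1.12; white adipocyte markers have the lowest, -1.61.

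Chaperone systems elsewhere in the cell were called in few members. In the list for unfolded proteins of the endoplasmic reticulum, 3 of 22 members were higher and 1 was lower. Ern1, the sensor that splices Xbp1, was at 8.74, 8.19, 5.96 and 9.57 CPM in WT and at 36.0, 39.0, 35.4 and 35.2 CPM in Tg (log2 fold change 2.15, SE 0.14, adjusted p = 1.54e-05). Atf6 rose by 1.04 and Herpud1, which acts in degradation from the reticulum, by 1.2 on the log2 scale, while the main chaperone gene Hspa5 (0.10) and Xbp1 (-0.16) were not called. All 3 increases were called in all 22 distinct alternatives; the decrease, of the translocon gene Sec61b (adjusted p = 0.0479), was lost without WT 3 or any 1 of the Tg libraries and joined by a second without WT 4. Of 27 cytosolic heat shock genes 2 were called higher, a share near the 6.53% of all genes, namely Hspb6 from 505 ± 132 to 1282 ± 193 CPM (SD, n = 4 each) and Hspb1, and the number was 1 without WT 1, WT 3 or any 1 of the Tg libraries and 3 without WT 2 or WT 4, where leaving out WT 4 also gave 1 lower call. It was 0 with the slow fibre score (Hspb6 adjusted p = 0.12). Among 32 subunits of the proteasome, 5 rose and 0 fell (median 0.13), and the number was 3 without WT 1, 2 without Tg 1, Tg 2 or Tg 3 and 0 without the brown-fat-bearing libraries or with the slow fibre score.

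Genes of muscle wasting fell in 4 cases and rose in 1 of 22 tested (median log2 fold change -0.12), where 4.15% of all genes were called lower. The member that rose was Ubb, a polyubiquitin gene (log2 fold change 0.34, adjusted p = 0.0419), a call lost without WT 1, WT 2 or any 1 of the Tg libraries. Trim63, the ubiquitin ligase MuRF1, was at 539, 659, 946 and 825 CPM in WT and at 365, 463, 251 and 325 CPM in Tg (log2 fold change -1.09, SE 0.22, adjusted p = 0.0144). Fbxo32, the ligase atrogin-1, was at 918 ± 365 and 520.3 ± 59.7 CPM (SD, n = 4 each) and was not called (log2 fold change -0.83, adjusted p = 0.061). None of the 4 decreases was called with the slow fibre score. Of 18 genes that respond to denervation or stretch, 7 were higher and 1 lower (median 0.82). Gadd45a, a growth arrest protein, was at 34.2, 27.5, 39.8 and 47.0 CPM in WT and at 200, 223, 180 and 154 CPM in Tg (log2 fold change 2.34, SE 0.17, adjusted p = 4.33e-05). The acetylcholine receptor subunit gene Chrnb1 rose by 1.25 and Musk, a kinase that builds the synapse between nerve and muscle, by 1.2; both were called in all 22 distinct alternatives. The decrease was that of Fgfbp1 (log2 fold change -1.30), joined by a second without WT 2; with the slow fibre score 4 members were called higher and 0 lower.

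Other stress lists held a few strong members, where 6.53% of all genes were called higher and 4.15% lower. Of 32 autophagy and lysosome genes, 5 were higher and 0 lower. Ctsl, a lysosomal protease, rose from 158 ± 14.7 to 437 ± 33.8 CPM, Map1lc3a from 114 ± 20.6 to 226 ± 23.4 CPM and the cargo receptor gene Sqstm1 from 427 ± 35.6 to 681 ± 43.5 CPM (SD, n = 4 each). In the fit with the slow fibre score 2 members of this list were called higher, and Sqstm1 was not called (adjusted p = 0.0979). In the list of oxidative stress genes tied to NRF2, 9 of 23 were higher and 2 were lower (median 0.08). Besides Slc7a11, Srxn1, which repairs peroxiredoxins, was at 20.5, 25.7, 16.1 and 15.8 CPM in WT and at 71.8, 98.1, 82.3 and 92.9 CPM in Tg (log2 fold change 2.13, SE 0.18, adjusted p = 9.64e-05). The other called increases of that list were small, at 0.42 to 0.81, and 4 members were higher without the brown-fat-bearing libraries and 2 with the slow fibre score. Of the 2 decreases, 1 was called without WT 3 or Tg 4 and 0 without Tg 1, Tg 2 or Tg 3. Of 17 p53 and growth arrest genes 6 were higher and 2 lower; Cdkn1a, the cell cycle inhibitor p21, rose from 30.6 ± 7.89 to 98.3 ± 13.4 CPM and Polk, a DNA polymerase of damage bypass, fell from 19.6 ± 4.72 to 6.47 ± 0.33 CPM (SD, n = 4 each). The 6 were 3 without Tg 2 or with the slow fibre score, and 1 of the 2 decreases was called without WT 3, WT 4 or any 1 of the Tg libraries.

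Genes of energy metabolism were called in single members, where 6.53% of all genes were called higher and 4.15% lower. Lists with so few calls are not set apart from all genes here. Of 38 complex I subunit genes 0 were called by edgeR (median log2 fold change 0.12), and of 42 subunits of complexes II to V 2 were higher and 0 lower (median 0.18; 6 higher without WT 4, 0 with the slow fibre score), Cox6a2 and Cox7a2. Of 21 genes of the citric acid cycle and its entry points 2 fell: Pcx, pyruvate carboxylase, was at 474, 401, 374 and 344 CPM in WT and at 222, 139, 111 and 184 CPM in Tg (log2 fold change -1.29, SE 0.21, adjusted p = 0.00517), and Pdk4, the kinase that shuts pyruvate dehydrogenase, was at 1172, 1739, 2327 and 1402 CPM in WT and at 923, 692, 829 and 743 CPM in Tg (log2 fold change -1.07, SE 0.20, adjusted p = 0.0104). Of 25 genes of fatty acid uptake and oxidation, Ucp3 was the single call, falling from 288 ± 97.1 to 108 ± 24.9 CPM (SD, n = 4 each; adjusted p = 0.00727). None of these 3 was called with the slow fibre score (adjusted p = 0.134, 0.205 and 0.16). Of 23 glycolysis and glycogen genes 2 rose, Gbe1, the glycogen branching enzyme, from 47.3 ± 13.4 to 157 ± 23.9 CPM, and Gyg, which primes glycogen, from 374 ± 37.4 to 616 ± 44.7 CPM, while 0 fell (2 without WT 2). Ppp1r3c, which targets protein phosphatase to glycogen, went the other way, from 678, 1012, 1036 and 971 CPM in WT to 222, 122, 182 and 250 CPM in Tg (log2 fold change -2.27, SE 0.23, adjusted p = 0.000414). Glul, glutamine synthetase, was at 640, 1134, 851 and 1255 CPM in WT and at 312, 347, 331 and 493 CPM in Tg (log2 fold change -1.40, SE 0.23, adjusted p = 0.00597; 0.0903 with the slow fibre score).

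Among the largest falls, several genes had wide spread in WT. Odf3l2 was at 11.4, 34.1, 21.1 and 23.0 CPM in WT and at 1.92, 1.2, 0.18 and 1.88 CPM in Tg (log2 fold change -4.13, SE 0.60, adjusted p = 0.00531). Dkk3, a secreted relative of Wnt inhibitors, was at 18.3, 34.6, 30.1 and 49.9 CPM in WT and at 6.75, 5.34, 4.45 and 8.50 CPM in Tg (log2 fold change -2.42, SE 0.32, adjusted p = 0.00267). Cyfip2, a subunit of the WAVE actin regulator, was at 11.3, 6.97, 62.9 and 39.0 CPM in WT and at 3.45, 4.44, 2.28 and 1.68 CPM in Tg (log2 fold change -3.36, SE 0.77, adjusted p = 0.0362). For Cyfip2 the WT libraries rich in fat markers were the lowest of WT, and the adjusted p was 0.0511 without WT 3, 0.052 without WT 4 and 0.0829 to 0.118 without any 1 of the Tg libraries. Ripor2 fell from 19.4 ± 8.12 to 4.17 ± 0.18 CPM, Pld5 from 8.33 ± 3.22 to 1.77 ± 0.24 CPM, Shc2 from 7.01 ± 0.66 to 1.68 ± 0.54 CPM and the deubiquitinase gene Otub2 from 26.7 ± 5.74 to 6.73 ± 1.48 CPM (SD, n = 4 each). With the slow fibre score Cyfip2 (adjusted p = 0.424), Odf3l2 (0.0666), Dkk3 (0.0825), Ripor2 (0.103) and Pld5 (0.134) were not called. Shc2 and Otub2 were called in all 22 distinct alternatives. The list of 26 decreases held under the 5 settings also has Tmem132b, named here after its values were seen. Tmem132b, a membrane protein gene, was at 2.18, 1.58, 2.95 and 2.86 CPM in WT and at 0.11, 0.10, 0.11 and 0.16 CPM in Tg (log2 fold change -4.27, SE 0.33, adjusted p = 5.32e-05). Asb2, part of a ubiquitin ligase that degrades filamins, fell from 779 ± 114 to 352 ± 46.0 CPM (SD, n = 4 each; adjusted p = 0.000686).

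Interferon response genes had log2 fold changes below 0 in most members. Of 26 tested, 5 were called lower, against 4.15% of all genes, and 0 higher, with a median log2 fold change of -0.53 and a highest value of 0.30, and the number was 3 without Tg 2, 3 without Tg 3 and 17 without WT 4. It was 1 with the slow fibre score, where Irgm2 had an adjusted p of 0.18, and 2 without the brown-fat-bearing libraries. Gbp7, a guanylate-binding protein, was at 17.7, 20.7, 20 and 17.2 CPM in WT and at 8.09, 10.8, 11.6 and 8.70 CPM in Tg (log2 fold change -0.96, SE 0.14, adjusted p = 0.00228). Irgm2 fell from 29.9 ± 9.88 to 14 ± 0.55 CPM (SD, n = 4 each), and Igtp, which shares exon sequence with it on the same strand, by 0.99 on the log2 scale. The sum of macrophage markers overlapped between the genotypes but was lowest in Tg 1 and highest in WT 3: it was 162, 262, 285 and 89.9 CPM in WT and 52.0, 114, 85.4 and 142 CPM in Tg, with 0 of 11 tested markers called by edgeR and a median of -0.995. The part of macrophage RNA in the interferon result was not tested. Lymphocyte markers summed to 0.22 to 1.10 CPM and none was tested. Endothelial markers (0 of 11 called, median -0.03) and fibroblast and matrix markers (0 of 9, median -0.44) were not called. Immediate early genes, which respond to stimulation of a muscle or to its dissection, were higher in 4 of 14 and lower in 0 (2 higher without any 1 of the Tg libraries, and 0 with the slow fibre score). Egr1 was at 5.41, 4.88, 4.48 and 2.16 CPM in WT and at 18.7, 15.7, 20.5 and 9.64 CPM in Tg (log2 fold change 1.90, SE 0.31, adjusted p = 0.00613; 0.122 with the slow fibre score).

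Slow fibre genes had the largest median of any list and no call. All 13 had a log2 fold change above 0, from 0.32 to 6.98, with a median of 2.62, and 0 of 13 passed the test by edgeR. Myh7 was at 0.26, 2.95, 0.05 and 0.16 CPM in WT and at 1.81, 406, 13 and 4.54 CPM in Tg (log2 fold change 6.98, SE 2.30, adjusted p = 0.106). Tg 2 was far above the rest, and WT 2 exceeded Tg 1. Casq2, which binds calcium inside the sarcoplasmic reticulum, was at 11.5, 26.2, 6.86 and 9.94 CPM in WT and at 29.2, 31.2, 45.3 and 43.0 CPM in Tg. Myoz2, a Z-disc protein of slow fibres, was at 3.37, 32.8, 0.58 and 2.81 CPM in WT and at 32.6, 62.3, 60.8 and 77.5 CPM in Tg. The 2 groups separate for Casq2 but touch for Myoz2, where WT 2 lies just above Tg 1. Without Tg 2 the list's median was 2.32 with 0 called, and without the brown-fat-bearing libraries, WT 2 among them, it was 5.45 with 3 of 13 called higher. In the list of 16 fast fibre genes the median was -0.23 and 1 gene was called, Myoz3, a fast Z-disc protein, which fell from 313 ± 54.6 to 162 ± 35.7 CPM (SD, n = 4 each; adjusted p = 0.00874). Without WT 2, 2 members were called lower and 2 higher, as without the brown-fat-bearing libraries; the 2 higher in the latter were the fast myosins Myh1 (log2 fold change 1.79) and Myh2 (3.13). With the slow fibre score 0 members were called in either direction by edgeR, and Myoz3 had an adjusted p of 0.216.

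Genes of fat and of fat synthesis had low medians without calls in most members. The 9 white adipocyte markers had a median log2 fold change of -1.61 and 0 calls by edgeR, and the median was -0.33 without the brown-fat-bearing libraries. In the list of 15 fat synthesis genes the median was -0.81, or -0.17 without those libraries. Its single call was Me1, malic enzyme, at 708, 590, 462 and 406 CPM in WT and 311, 299, 300 and 361 CPM in Tg (log2 fold change -0.78, SE 0.17, adjusted p = 0.0188). Me1 was highest in WT 1 and WT 2, and it was not called without Tg 1, Tg 2 or Tg 3, while 2 genes of the list were called without WT 2 or WT 3. Of the 858 genes higher in Tg, 7 followed the adipocyte score upward and 2 downward, and of the 546 lower genes 6 and 12 did, against 783 and 101 of all 13143. Genes that follow the score vary between libraries of the same genotype and are less readily called for genotype. These counts therefore cannot tell how far fat RNA enters the called genes.

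The female effect was set against that of the male libraries by an interaction test in a fit of all 16. Of 13666 genes, 1 (0.00732%) was called by edgeR and 1015 (7.43%) had an unadjusted p under 0.05; limma-voom called 1 and DESeq2 80. The gene was Itpr1, a calcium release channel of the endoplasmic reticulum, which fell in females from 41.1, 40.0, 40.8 and 37.3 CPM in WT to 21.9, 22.5, 26.7 and 29.2 CPM in Tg (log2 fold change -0.68, SE 0.11, adjusted p = 0.00428). In males its log2 fold change was -1.61 (SE 0.09), and the female minus male difference was 0.92 (SE 0.13, adjusted p = 0.0272). The number called was 0 without female Tg 3, male Tg 1, Tg 2 or Tg 3, or male WT 2 or WT 4. It was 2 without female WT 1 or WT 4, 3 without female WT 2, 5 without female WT 3 and 30 without male Tg 4. Without male WT 3 it was 1, but the gene called there was not Itpr1. For Slc25a4 the female minus male difference was 0.32 (SE 0.15, adjusted p = 0.678).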

How the data were processed

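RNA from quadriceps of 8 female mice (4 WT, 4 ANT1(Tg)/+) was sequenced as stranded mRNA libraries, per the labels' protocols. The authors deposited 1 file of estimated counts per library; TopHat2, Bowtie2, bcl2fastq, cutadapt 1.2.1 and mm10 as the build are listed per the submitters' processing notes, while the program that assigned reads to genes, and whether it used strand, are not stated in the labels. Values were rounded to whole counts (largest change 0.5; 95.09% were already whole within 0.01, or within 1e-05 of their size).

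Genes passing filterByExpr (minimum count 10, minimum total 15) were tested with edgeR 4.0.16 in R 4.3.3, with TMM scaling, a robust quasi-likelihood F test and Benjamini-Hochberg adjustment at 0.05; adjusted p-values in the text come from it unless another tool is named. The sex comparison used all 16 libraries (13666 genes). Alternatives were DESeq2 1.42.0, limma-voom (limma 3.58.1), other scalings and filters, thinning, unrounded values, marker scores as covariates, and libraries left out. The code was tested on simulated data. Intervals and limits of 3 counts cover counting error only. An SE in the text is the absolute log2 fold change divided by the square root of edgeR's F statistic. It is thus derived from the test and was not estimated separately.

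The members and gene lists were chosen with earlier results of these data known. Genes were named by a rule: Slc25a4, called genes with the 15 highest and 12 lowest log2 fold changes, provided that the log2 of the mean CPM was at least 1 and the groups did not overlap, genes with at most 3 counts in 1 genotype and at least 10 in each library of the other, the 6 largest rises and 6 largest falls in mean CPM, up to 4 called members per list (or the most abundant where none was called), genes called for the interaction or the scores, and genes within 500 kb of Slc25a4. Outside that rule, Slc25a5, Phgdh, Ddit3, Nupr1, Eif4ebp1, the eIF2 kinases, uncalled tRNA synthetases, Slc7a8, Slc38a4, Mstn, Hspd1, Hspa5, Xbp1, Ubb, Fbxo32, Fgfbp1, Casq2, Myoz2, Aldh1l1, Atp2a1, Myh1, Myh2 and Tmem132b were chosen after their values were seen.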

Additional observations from a re-analysis of the deposited data

Results flagged for a closer look

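A check by Dixon's test took 135 genes, not all of them named in the text, each in both genotypes of females. Groups of 4 libraries whose highest level lay below 1 CPM were skipped, so fewer than 270 groups were tested. In 26 groups 1 library's gap to its nearest neighbour was above the 95% critical value. Chance flags about 1 group in 20.

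Tg 4, which carried brown fat RNA, stood above the other Tg libraries for Slc25a5 (61.1 CPM), Aldh1l1 (16.2 CPM), Fabp4 (617 CPM), Adipoq (83.1 CPM), Ucp1 (250 CPM) and Cidea (68.1 CPM). Tg 2, with the highest slow fibre sum, stood above the other Tg libraries for Myh7 (406 CPM), Tnnc1 (56.8 CPM), Tnni1 (53.1 CPM), Tnnt1 (88.3 CPM), Atp2a2 (243 CPM) Eif2ak4 (9.59 CPM) and Nrap (3001 CPM). Tg 4 was the lowest Tg library for Fgfbp1 (3.15 CPM). Tg 1 was the highest Tg library for Slc7a11 (28.2 CPM), Cox6a2 (1384 CPM) and Dnaja3 (206 CPM), and the lowest for Myh7b (2.65 CPM).

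Among WT libraries, WT 2 was the highest for Myoz2 (32.7 CPM), Myh7 (2.95 CPM), Myh2 (2318 CPM), Tnnt1 (4.47 CPM) and Gbp10 (16.2 CPM). WT 3 was the highest for Ucp3 (432 CPM) and the lowest for Timm10 (8.54 CPM), and WT 4 was the highest for Mrps18b (39.4 CPM).

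The genotype effect on Itpr1 was called as different between the sexes, with a female minus male difference of 0.92 on the log2 scale by edgeR's interaction test (adjusted p = 0.0272). This call was lost without female Tg 3, male Tg 1, Tg 2 or Tg 3, or male WT 2, WT 3 or WT 4.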

How the results depend on the processing

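No paired analysis was possible because the labels number no replicates and tie no Tg mouse to a WT mouse; the numbers 1 to 4 used here only name libraries. Of 102 called genes in a checked set that includes genes not named in the text, 59 were called under all 22 distinct alternatives. Leaving out 1 library gave 645 to 2186 calls in all, 413 to 1190 higher and 229 to 996 lower. In the same way it gave 0 to 30 genes that differed between the sexes, 334 to 1600 that followed the adipocyte score and 3 to 21 that followed the slow fibre score. The fit of all 16 libraries called 2416 genes, 1382 higher and 1034 lower. The slow fibre score as a covariate left 219 (177 higher, 42 lower) and both scores 208 (151 and 57). Without Tg 2 the numbers were 645, 413 and 232, and without the brown-fat-bearing libraries, an alternative chosen after seeing the data, 866 in all and 434 higher. Without WT 1 and WT 2, 564 were higher. DESeq2 called 987 lower and the adipocyte covariate 854. For the difference between the sexes DESeq2 called 80 genes and the fit with both scores 4. With the other score in the fit, 510 genes followed the adipocyte score and 5 the slow fibre score. The adipocyte covariate reversed Cidea (log2 fold change 4.09, adjusted p = 0.0256) and Klhdc7a (0.60, adjusted p = 0.0149), neither called without it. Where a fit lost libraries, it also lost samples. As a covariate, the slow fibre score inflates the variance of the genotype effect 2.31-fold. Of the genes not called with it, Odf3l2 went from a log2 fold change of -4.13 to -4.30 and Glul from -1.40 to -1.53. Dkk3 went from -2.42 to -2.27, Cyfip2 from -3.36 to -2.36 and Ucp3 from -1.42 to -0.85. How far slow fibre RNA enters these lost calls was not tested. For the other settings the cause was not tested. A level of 3 counts was 0.099 to 0.162 CPM, below which a gene could not be told from 0.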
